A study of Bos taurus with 6 samples.

Results

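The trophectoderm is the outer epithelium of the mammalian blastocyst and the source of the embryonic part of the placenta. It separates from the inner cell mass at the transition from morula to blastocyst, under a set of transcription factors that keep trophoblast genes on. In outer cells, where the Hippo kinases are quiet, the coactivator YAP1 enters the nucleus and acts with TEAD4 on trophoblast genes. CDX2, GATA2, GATA3, the AP-2 factors TFAP2A and TFAP2C, KLF5, ELF5 and EOMES are further factors of that lineage, and their roles were described mostly in the mouse. These 10 genes were followed here on the Affymetrix Bovine Genome Array, on which several short probes against a transcript, together called a probe set, are summarised as 1 value. Every probe set annotated to 1 of the 10 symbols was taken. This gave 5 probe sets of 4 genes, namely TFAP2A, TEAD4, ELF5 and KLF5 (with 2 probe sets), among 24036 probe sets on the array. The other 6 genes, CDX2, TFAP2C, GATA2, GATA3, EOMES and YAP1, were named for none of the probe sets and were not analysed here.

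Embryos of Bos taurus were produced by in vitro fertilization from abattoir oocytes of mature cows and frozen bull semen, with no genetic change and no treatment in either group. All had compacted by the morula check and were graded on day 8. Those showing a blastocoele and a clear inner cell mass formed the blastocyst group, and those that had not made the transition formed the late degenerative group. Each group consisted of 3 pools (A, B and C) of 20 whole embryos from several dams and sires, with 1 array per pool. A pool therefore held all lineages of the embryo, and embryos of the degenerative group may have stopped at different stages. Deposited values are log2 expression values that start at a floor of 2.12, so differences near that level are compressed. Degenerative pool A stood apart from the rest, with a Pearson's r across probe sets of 0.936 and 0.938 to the other degenerative pools, against 0.972 to 0.994 for the other pairs of pools within a group. For this reason the members were compared over all 6 pools and again without degenerative pool A, as were the genes whose value depended on that pool. All differences are degenerative minus blastocyst on the log2 scale, tested with limma over all probe sets that varied, and a probe set was called at an adjusted p of at most 0.15. As the pools are bulk samples, fewer cells of a type and less RNA per cell cannot be told apart.

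Of the 4 genes, TFAP2A had the largest difference and was lower in degenerative embryos than in blastocysts, TEAD4 differed little, and ELF5 and KLF5 lay somewhat lower with wide or overlapping spreads. None of the 5 probe sets was called by limma, either with all pools, where 0.0211% of the 18937 probe sets tested were called, or without degenerative pool A, where 0.179% of 18465 were called. Blastocyst and degenerative pools were fully separated for 2 of the 5, TFAP2A and the KLF5 probe set with the lower mean, and both were lower in degenerative embryos. Over all probe sets tested, 8.93% were without overlap in that direction, and 16.6% without degenerative pool A. An unadjusted limma p under 0.05 in that direction was found for TFAP2A alone among the 5 probe sets in both comparisons, against 5.27% of all probe sets with all pools and 6.51% without degenerative pool A.

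**Figure D1:**
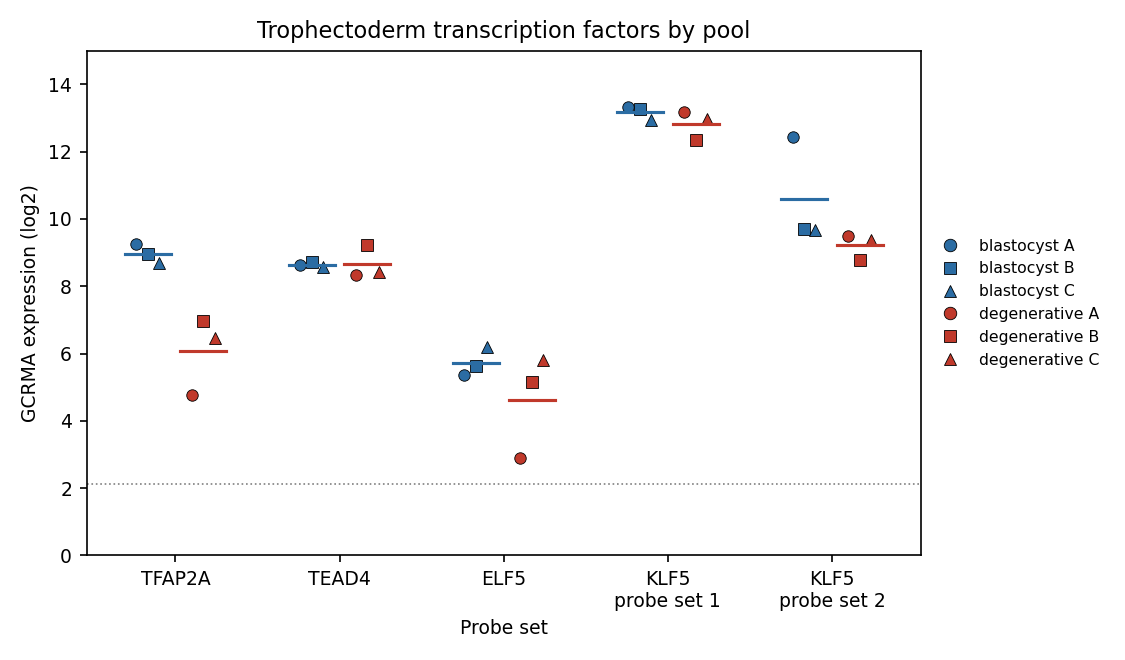
Log2 GCRMA level (vertical axis) by probe set of TFAP2A, TEAD4, ELF5 and KLF5 (horizontal axis), where every point stands for 1 pool (blastocysts in blue, degenerative embryos in red, marker shape by pool letter), short lines mark group means and a dotted line marks the floor of 2.12. TFAP2A is lower in all 3 degenerative pools, and ELF5 is low only in degenerative pool A, at 2.90.

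TFAP2A encodes AP-2 alpha, which binds DNA as a dimer and shares its binding sequence with TFAP2C. The expression level of its probe set was 9.26, 8.96 and 8.70 in blastocyst pools A, B and C. It was 4.78, 6.98 and 6.47 in degenerative pools A, B and C. The lowest blastocyst pool thus lay 1.73 above the highest degenerative pool, and degenerative pool A was the farthest below. The group means were 8.97 ± 0.28 (SD, n = 3) and 6.08 ± 1.15 (SD, n = 3). The log2 difference was -2.90 (standard error 0.63, 95% interval -4.55 to -1.24), a level 7.45-fold lower in degenerative embryos (2.36-fold to 23.5-fold). The adjusted p from limma was 0.470, and the probe set ranked 273 by its unadjusted p. Counting TFAP2A itself, 24 of the 18937 probe sets had a difference as low or lower. SAM, the test of the methods, did not call it at a false discovery rate of 15% (0.354% of probe sets called) but called it at 25% (4.66% called). Two-sided, the exact permutation test gave p = 0.10, the smallest that 3 pools against 3 allow.

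Without degenerative pool A the TFAP2A difference was smaller and its spread narrower. The degenerative mean was then 6.73 ± 0.35 (SD, n = 2), and the log2 difference was -2.25 (standard error 0.25, 95% interval -2.97 to -1.52), or 4.75-fold lower. The probe set ranked 109 by p and its adjusted p from limma was 0.198, between 0.152 and 0.584 over the other settings of that comparison, so it was not called. A difference as low or lower was found for 47 probe sets, TFAP2A included. The exact permutation p was again 0.10, the smallest for 3 pools against 2.

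TEAD4 is the DNA-binding partner of YAP1. The expression level of its probe set was 8.62, 8.73 and 8.58 in blastocyst pools A to C and 8.33, 9.24 and 8.43 in degenerative pools A to C. The blastocyst pools lay within a narrow band, and the degenerative pools lay on both sides of it. The log2 difference was 0.02 (standard error 0.27, 95% interval -0.69 to 0.73, adjusted p = 1 from limma), and 0.19 (95% interval -0.60 to 0.98) without degenerative pool A. Its sign turned without degenerative pool B (-0.26) and without blastocyst pool C (-0.0095). The interval leaves room for a level up to 1.61-fold lower, and these arrays do not show that the groups were alike.

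ELF5 is an ETS-family factor of trophoblast stem cells. Its probe set was at a level of 5.35, 5.62 and 6.19 in blastocyst pools A to C. In degenerative pools A to C it was at 2.90, 5.14 and 5.82. Degenerative pool A was near the floor of the scale, whereas pool C lay among the blastocyst pools. The log2 difference was -1.10 (standard error 0.85, 95% interval -3.32 to 1.12, adjusted p = 0.737 from limma). It was -0.24 (95% interval -1.29 to 0.81) without degenerative pool A, so most of the difference came with that pool.

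KLF5 is a zinc finger factor that acts in both the trophectoderm and the inner cell mass of the early embryo. Its probe set with the higher mean was at 13.33, 13.26 and 12.93 in blastocyst pools A to C and at 13.18, 12.35 and 12.96 in degenerative pools A to C. The groups overlapped, with degenerative pool B the lowest. The log2 difference was -0.34 (95% interval -1.01 to 0.33, adjusted p = 0.737 from limma), and -0.52 without degenerative pool A. Without degenerative pool B it was -0.10. The other probe set was at 12.44, 9.69 and 9.67 in the blastocyst pools and at 9.50, 8.78 and 9.36 in the degenerative pools. Here blastocyst pool A lay far above all others, and the remaining blastocyst pools cleared the highest degenerative pool by only 0.17. The log2 difference was -1.38 (95% interval -3.68 to 0.91, adjusted p = 0.706 from limma). It was -1.53 without degenerative pool A and -0.46 without blastocyst pool A. Both probe sets of KLF5 pointed the same way, and neither was called.

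**Figure D2:**
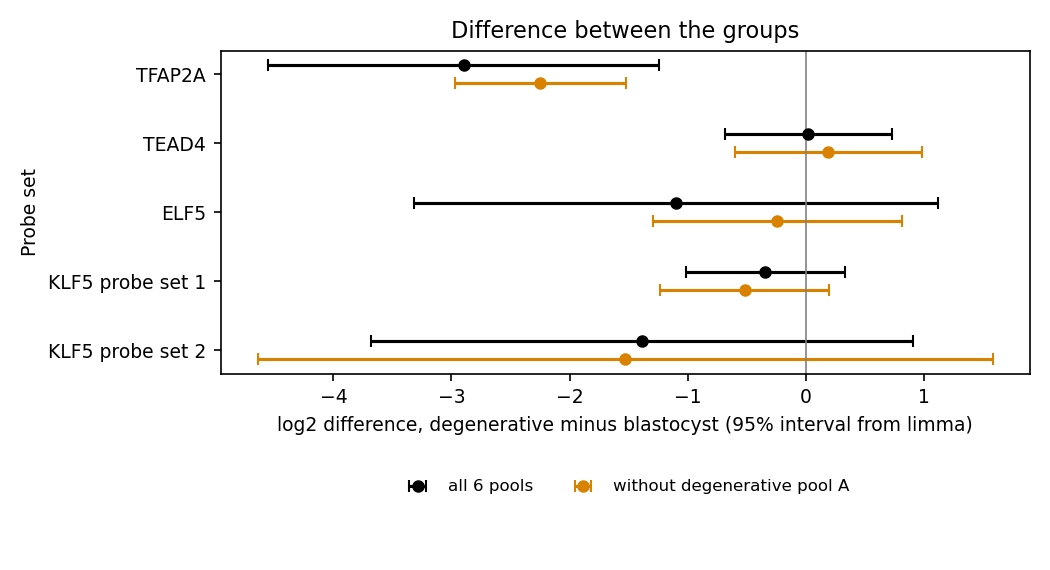
Log2 difference between group means, degenerative minus blastocyst (horizontal axis), of each probe set (vertical axis), with 95% intervals from limma. Black is for all 6 pools and orange is without degenerative pool A; the TFAP2A intervals, -4.55 to -1.24 and -2.97 to -1.52, lie wholly below 0, and the other probe sets' intervals include 0.

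The members also differed in how much pools of a group varied. The pooled SD within groups was 0.84 for TFAP2A, 1.12 for ELF5 and 1.16 for the second KLF5 probe set. It was 0.36 for TEAD4 and 0.34 for the first KLF5 probe set, near the median of 0.38 over all probe sets tested. The 3 probe sets with the larger SD thus had a larger pooled SD than at least 84.7% of probe sets. For TFAP2A and ELF5 it came mainly from the degenerative pools (SD 1.15 and 1.53, against 0.28 and 0.43 in blastocysts). For the second KLF5 probe set it came mainly from the blastocyst pools (SD 1.59, against 0.39 in degenerative embryos). The log2 value of each other member was also subtracted from that of TFAP2A within each pool, only to compare the result between the groups. As TFAP2A had the largest difference of the members, the outcome was in part fixed beforehand and is no separate evidence. Against TEAD4 the result was lower in degenerative embryos by a log2 difference of -2.92, with no overlap (two-sided exact permutation p = 0.10, the smallest allowed). It was -1.80 against ELF5 and -2.55 against the first KLF5 probe set, each without overlap and with an exact permutation p = 0.10. Against the second KLF5 probe set it was -1.51 and the groups overlapped (exact permutation p = 0.30). Without degenerative pool A these values were -2.44, -2.01, -1.73 and -0.72, and the last had an exact permutation p = 0.60.

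Profiles over the 6 pools were centred on their means to find the named genes most like TFAP2A. The smallest root mean square difference was that of GAB1 (0.333), an adaptor of receptor tyrosine kinases. MOCOS, which sulfurates the molybdenum cofactor, followed at 0.369, and MYC, a transcription factor of cell growth, at 0.391. The median over all named probe sets was 1.62. Each of these 3 genes was lower in all degenerative pools than in all blastocyst pools and lowest in degenerative pool A, as TFAP2A was. They were picked for their likeness to TFAP2A, so this shared pattern follows from the selection. MYC was at 9.82, 9.60 and 9.16 in blastocyst pools A to C and at 4.95, 8.24 and 7.66 in degenerative pools A to C. Its log2 difference was -2.57 (adjusted p = 0.578 from limma), and none of the 3 genes was called.

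Other transcription factors of the trophoblast were taken from a list of 20 genes, of which 12 could be tested, each by its probe set with the highest mean. Of these, 7 were lower and 5 higher, with a median log2 difference of -0.03, against 0.02 over all 8189 genes. None was called with all pools, where 0.0366% of genes were called, and none had groups without overlap. ASCL2, a basic helix-loop-helix factor needed for trophoblast precursors, was at 5.42, 5.27 and 4.34 in blastocyst pools A to C and at 4.04, 4.20 and 4.34 in degenerative pools A to C. Its log2 difference was -0.82 (adjusted p = 0.593 from limma), and blastocyst pool C equalled degenerative pool C. ELF3, an epithelial ETS factor, differed by -0.19. CEBPA, a leucine zipper factor, differed by 0.35 at levels close to the floor. HEY1, a target of Notch, was at 2.93 to 2.98 in the blastocyst pools and at 2.93, 3.68 and 3.75 in degenerative pools A to C. It was called as higher only without degenerative pool A, by 0.77 (adjusted p = 0.104 from limma, where 0.211% of genes were called). That call was lost with the replicate block (adjusted p = 0.440), with each array centred on its median (0.248), with an intensity trend (0.173) and without any 1 blastocyst pool (0.216 to 0.584).

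Of 25 genes listed as relatives of the members, 11 were tested, and 7 were higher and 4 lower (median 0.29, and 0.09 without degenerative pool A). None was called in either comparison. GATA6, a hypoblast factor of the family of GATA2 and GATA3, was at 13.75 ± 0.17 in blastocysts and 13.70 ± 0.18 in degenerative embryos (SD, n = 3 each). GATA4 differed by 1.17 (adjusted p = 0.718 from limma) and by 1.79 without degenerative pool A (adjusted p = 0.467). ELF4 differed by 1.01 and by 0.24 without that pool. ELF2, an ETS factor, differed by -0.40, and its other probe set lay near the floor. TEAD3, a relative of TEAD4, was at 8.16 ± 0.23 and 8.45 ± 0.37 (SD, n = 3 each). KLF4, a factor of pluripotency, was at 13.39, 13.31 and 13.37 in the blastocyst pools and at 14.39, 13.68 and 13.54 in the degenerative pools. All degenerative pools were above all blastocyst pools, by a log2 difference of 0.51 (adjusted p = 0.628 from limma) that was 0.26 without degenerative pool A.

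**Figure D3:**
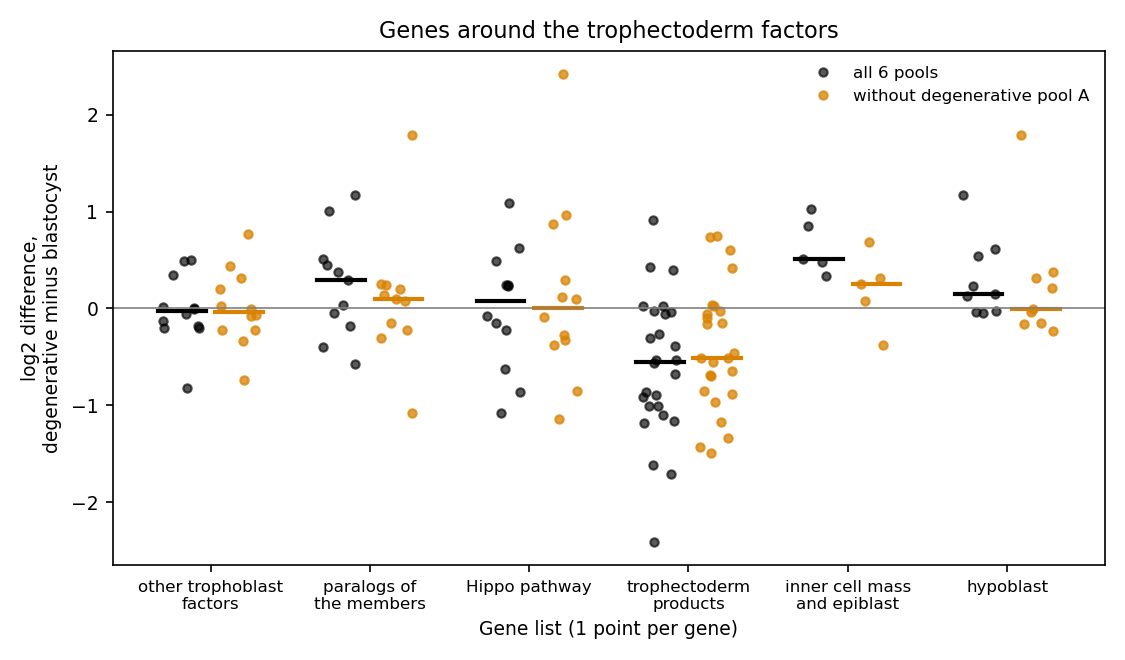
Log2 difference, degenerative minus blastocyst (vertical axis), of the tested genes of 6 lists (horizontal axis), 1 point per gene, with all 6 pools in black and without degenerative pool A in orange; horizontal bars are list medians. Trophectoderm products lie mostly below 0, with medians of -0.55 and -0.51, and the other trophoblast factors centre near 0.

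The Hippo pathway phosphorylates YAP1 and keeps it from TEAD4. Of 28 genes listed, 12 were tested, of which 6 were higher and 6 lower, with a median of 0.08 (0.01 without degenerative pool A). None was called. STK4, a kinase at the head of the pathway, was at 8.34, 7.64 and 7.96 in blastocyst pools A to C and at 9.30, 8.89 and 9.01 in degenerative pools A to C. The groups did not overlap, and the log2 difference was 1.08 (standard error 0.22, adjusted p = 0.451 from limma). A second, dim probe set of STK4 differed by 0.42. TAOK3, a kinase that can activate STK3 and STK4, was at 6.17 ± 0.38 and 5.09 ± 0.55 (SD, n = 3 each), a log2 difference of -1.08 (adjusted p = 0.547). SAM at 25%, where 4.66% of all probe sets were called, called STK4 as higher and TAOK3 as lower, and limma called neither. LATS1, the kinase that acts on YAP1, was near the floor in all pools but blastocyst pool A, and PRKCZ, an apical polarity kinase, differed by -0.22.

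Genes that YAP1 and TEAD factors are known to drive were picked out of this list after their values had been seen. ANKRD1 was at 8.42, 9.24 and 10.72 in blastocyst pools A to C. In degenerative pools A to C it was at 5.36, 12.37 and 11.39. Degenerative pool A was the lowest of all 6 pools and the other degenerative pools were the highest. The log2 difference of ANKRD1 was 0.25 with all pools (adjusted p = 1 from limma) and 2.42 without degenerative pool A (adjusted p = 0.451). CCN1, a matricellular protein, was at 10.92, 11.23 and 11.92 in the blastocyst pools and at 9.22, 12.07 and 10.89 in the degenerative pools, again with degenerative pool A lowest. Its log2 difference was -0.63, and 0.12 without degenerative pool A. CCN2, its relative, differed by 0.49 and by 0.87 without degenerative pool A, and neither gene was called.

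**Figure D4:**
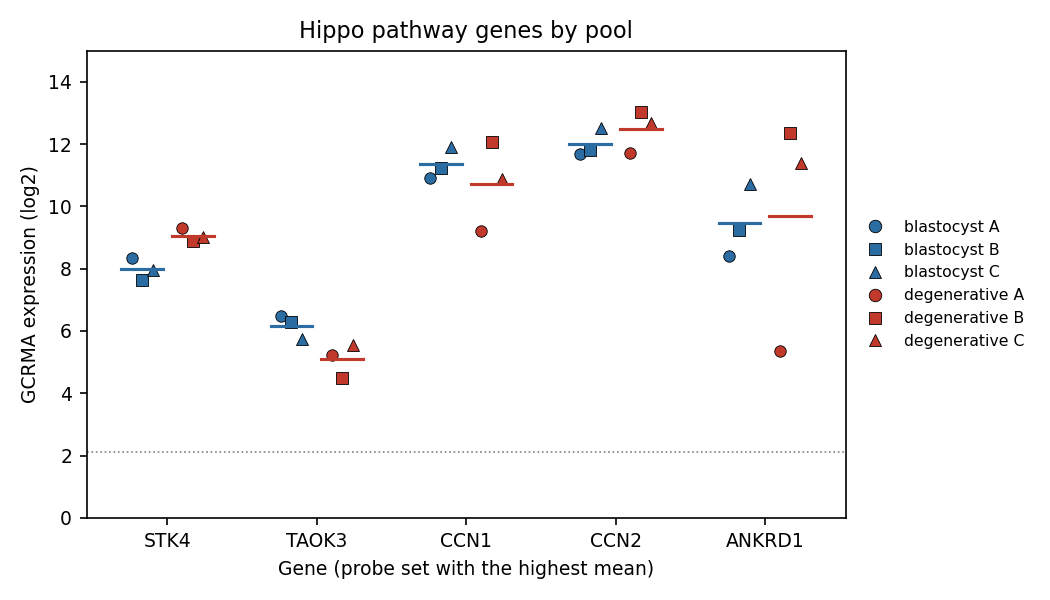
Log2 GCRMA level (vertical axis) of Hippo pathway genes (horizontal axis), with blastocyst pools in blue, degenerative pools in red, marker shape by pool letter and short lines at group means. STK4 is higher in all 3 degenerative pools, and ANKRD1 spreads from 5.36 in degenerative pool A to 12.37 in degenerative pool B.

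Products of the trophectoderm, such as its keratins, junction proteins, interferon tau and pregnancy-associated glycoproteins, were lower more often than higher. Of 37 genes listed, 26 were tested, and 21 were lower and 5 higher, with a median of -0.55 (-0.51 without degenerative pool A). An unadjusted limma p under 0.05 in the lower direction was found for 7 of the 26 (26.9%), against 5.65% of all genes, and 9 (34.6%) were lower without overlap, against 9.16% of all genes. The list was chosen with earlier results of these data known, and the genes set against it were not matched for level. These shares are therefore no independent test. No gene of the list was called, the smallest adjusted p from limma being 0.348. SAM at 25% called 6 of the 26 as lower, with 4.66% of all probe sets called in either direction. Most were well measured in both groups, with 24 of 26 at a log2 level of at least 5 in every blastocyst pool and 23 in every degenerative pool.

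CYP11A1, the enzyme that starts steroid synthesis from cholesterol, had the smallest p of the list. It was at 9.03, 8.69 and 8.76 in blastocyst pools A to C and at 7.88, 7.78 and 7.53 in degenerative pools A to C, a clear separation with a narrow spread in both groups. The log2 difference was -1.10 (standard error 0.14, adjusted p = 0.348 from limma), and -1.17 without degenerative pool A. This gene was among those the study picked from the same arrays, so its place in the list is no independent evidence. RAB25, a GTPase of apical recycling in epithelia, was at 8.76, 8.58 and 9.08 in blastocyst pools and at 6.36, 7.21 and 7.73 in degenerative pools. Its log2 difference was -1.71 (standard error 0.39, adjusted p = 0.479) and -1.34 without degenerative pool A. EZR, which ties the apical membrane to actin, differed by -0.53 (adjusted p = 0.459 from limma). PTGS2, the inducible prostaglandin synthase, was at 13.78 ± 0.40 in blastocysts and 12.78 ± 0.19 in degenerative embryos (SD, n = 3 each, adjusted p = 0.479 from limma). A second probe set, with means of 11.58 and 7.97, differed by -3.61 (adjusted p = 0.737 from limma). The third differed by 0.88, at means of 2.42 and 3.30 near the floor. The probe sets of this gene thus differed in size, and in direction only near the floor.

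Further products were picked out after their values had been seen. PAG2, a pregnancy-associated glycoprotein, was at 13.04, 12.97 and 13.17 in blastocyst pools A to C and at 8.83, 11.77 and 11.37 in degenerative pools A to C. All degenerative pools lay below, and degenerative pool A was farthest from the rest. Its log2 difference was -2.41 (standard error 0.85, adjusted p = 0.566 from limma) and -1.49 (standard error 0.15, adjusted p = 0.198) without degenerative pool A. PAG genes are related members of a family, and whether this probe set measured PAG2 alone was not tested. The other PAG genes tested did not all share its pattern. PAG11 differed by -1.17 with all pools and by 0.42 without degenerative pool A. PAG8 differed by -0.87 and PAG12 by 0.03, both at levels near the floor. IFNT2, an interferon tau gene by which the conceptus signals pregnancy, was at 13.32, 12.96 and 13.54 and at 10.45, 13.02 and 13.33. It was low in degenerative pool A alone, and its log2 difference of -1.01 became -0.10 without that pool. KRT18, an early keratin of the trophectoderm, was at 15.65, 15.34 and 15.26 and at 15.52, 15.37 and 15.17, with overlapping groups and a log2 difference of -0.06. AQP3, a water channel, was higher in every degenerative pool, by 0.91 (adjusted p = 0.580 from limma), and by 0.74 without degenerative pool A.

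**Figure D5:**
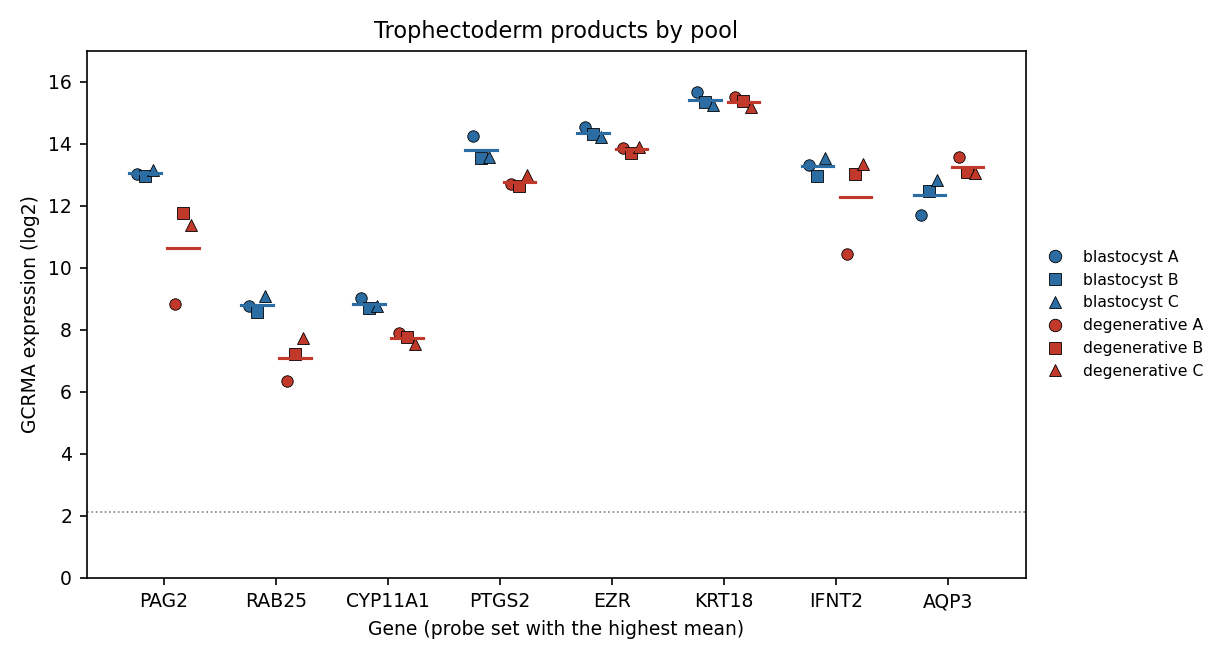
Log2 GCRMA level (vertical axis) of trophectoderm products (horizontal axis), with pools of blastocysts in blue and of degenerative embryos in red, marker shape by pool letter and short lines at group means. CYP11A1, RAB25 and PAG2 are lower in all 3 degenerative pools, with PAG2 lowest in degenerative pool A at 8.83.

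Markers of the other cells that a pool could hold were set beside these values. The 5 tested genes of the inner cell mass and epiblast were all higher, with a median of 0.51, and none was called. Without degenerative pool A, 4 were higher and 1, STAT3, was lower, with a median of 0.26. POU5F1, the pluripotency factor, was at 12.59, 12.34 and 12.60 in the blastocyst pools and at 13.32, 12.99 and 12.65 in the degenerative pools, a log2 difference of 0.48 (adjusted p = 0.602 from limma) that was 0.31 without degenerative pool A. SOX2 differed by 1.03 (adjusted p = 0.601 from limma), and by 0.69 without that pool. The 9 hypoblast genes had a median of 0.15, with 6 higher and 3 lower, and without degenerative pool A 4 were higher and 5 lower (median -0.0041). Among 12 oocyte markers, 5 were tested and all 5 were higher, though MOS by only 0.014. NLRP5 differed by 1.13, and by 0.25 without degenerative pool A. The mean log2 level of the 5 genes ran from 2.56 to 2.71 in blastocysts and from 3.02 to 4.24 in degenerative embryos. ZP2, a zona pellucida protein, reached 6.16 in degenerative pool A, and its log2 difference of 1.40 was 0.50 without that pool. ZP4, another of these proteins, was called as higher only without that pool (adjusted p = 0.104 from limma, where 0.211% of genes were called), and that call was lost with the replicate block, under which 0 probe sets were called. GDF9 and BMP15 had the same value on every array. The summed linear level of these 5 genes was 30.7 to 36.7 in blastocysts and 43.1 to 156 in degenerative embryos. For 11 cumulus and granulosa cell genes the mean log2 level was 3.81 to 5.13 in blastocysts and 3.97 to 5.52 in degenerative embryos, and the summed linear level was 1303 to 1938 and 1651 to 4060, with overlap on both scales. The highest sum of each group, that of its pool A, rested mostly on HAS2, at 10.8 in blastocyst pool A and 11.8 in degenerative pool A. Without degenerative pool A, 10 of these genes were tested, 5 were higher and 5 lower, and none was called. Over all genes in that comparison 16.9% were lower without overlap, and the share higher without overlap was not worked out. Of the 10 genes, 0 were lower without overlap and 4 were higher without overlap. With no share of all genes in the higher direction beside them, the 4 cannot be read as more than usual. Among them PTX3, a matrix protein of the expanding cumulus, was at 2.25, 2.12 and 4.27 in blastocyst pools A to C and at 2.12, 8.36 and 7.22 in degenerative pools A to C. Its log2 difference without degenerative pool A was 4.91 (adjusted p = 0.302 from limma). CYP19A1, the aromatase of granulosa cells, differed by -2.07 in that comparison, and these genes were picked out after their values had been seen. INHBA, a subunit of activin, was at 3.71, 6.64 and 7.68 and at 8.70, 9.03 and 7.84, higher in every degenerative pool. For 4 genes of spermatozoa the mean log2 level overlapped (5.22 to 5.96 and 5.12 to 5.60). Their summed linear level, 1926 to 2066 in blastocysts and 1270 to 1745 in degenerative embryos, did not, but it rested mostly on ODF2. ODF2 was at 10.88, 10.95 and 10.81 in blastocyst pools A to C and at 10.38, 10.23 and 10.71 in degenerative pools A to C. PRM1, TNP1 and AKAP4 overlapped between the groups. What part the makeup of the pools had in the TFAP2A difference was not tested.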

How the data were processed

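Total RNA from pools of 20 embryos was linearly amplified (labels and methods differ on the number of rounds), labelled and hybridised to the Affymetrix Bovine Genome Array. The deposited values are log2 expression values that the authors made with GCRMA (v2.14.1), which corrects background by probe sequence, normalises arrays by quantiles and summarises each probe set. Quantile normalisation gives all arrays nearly the same distribution, so a change shared by most transcripts cannot be seen. Genes were named from the platform annotation. The table held 24036 probe sets. After removal of 20 controls and of 5079 probe sets that did not vary, 18937 were tested, of which 11002 had 1 gene symbol, 64 several and 7871 none. Precision is limited by the number of arrays, 3 a group.

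Groups were compared with limma (v3.58.1, R v4.3.3), with Benjamini-Hochberg adjustment over all probe sets tested and a call at 0.15. SAM, the test of the methods, was rewritten and run at 15% and 25%. Code was tested on simulated data. Members and lists were chosen with earlier results of these data known. Every member was named with every probe set, and in each list up to 4 genes with the smallest p, a gene being represented by its probe set with the highest mean. For TFAP2A the 3 genes with the most similar profile were named. Pools sharing a letter deviated together from their group means (r = 0.373 for A, 0.180 for B and 0.275 for C). Neither labels nor methods state a pairing, and pools with different letters were not compared in this way. Letters were taken as pairs only in an alternative fit with a replicate block. The other settings were arrays centred on the median, a mean of at least 5, eBayes with an intensity trend, a threshold of 0.25 and KLF5 averaged over its probe sets. Each pool was also left out in turn, as were both A pools together.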

Additional observations from a re-analysis of the deposited data

How the results depend on the processing

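With all pools, 4 probe sets were called. The count was 0 with the replicate block, 1 with arrays centred on the median, 1 with a mean of at least 5, 1 with an intensity trend, 30 at an adjusted p of at most 0.25, 67 by SAM at 15%, 883 by SAM at 25% and 0 to 33 with 1 pool left out. Without degenerative pool A, 33 were called. That count was 0 with the replicate block, 7 with centred arrays, 2 with a mean of at least 5, 20 with the trend, 202 at 0.25, 0 by SAM at 15%, 1841 by SAM at 25% and 0 to 1087 with 1 more pool left out, which leaves 1 degenerative pool in the fits at the high end. Of the members, 0 were called in either comparison, and 1, TFAP2A, by SAM at 25% in both and at an adjusted p of at most 0.25 without degenerative pool A.

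TFAP2A was lower under every setting run. In the settings that start from all pools it differed by -3.35 to -2.10 (adjusted p from limma 0.198 to 0.838). These include fits with 1 pool or both A pools left out, which gave both ends of that range. Without degenerative pool A it differed by -2.50 to -2.00. In the fit with the replicate block, where letters were taken as pairs, the TFAP2A difference was -2.90 (adjusted p from limma 0.507). Leaving out 1 pool turned the sign of TEAD4 (-0.26 to 0.19, and -0.21 to 0.59 without degenerative pool A), of ELF5 without degenerative pool A (-0.58 to 0.10) and of ELF4 there (-0.017 to 0.50). Averaging both KLF5 probe sets gave -0.86 and -1.02. HEY1 and ZP4, called by limma without degenerative pool A, both lost that call with the block, under which 0 probe sets were called in either comparison. The median of the trophectoderm products stayed negative in settings chosen after seeing the data (-0.67 to -0.28, and -0.62 to -0.26 without degenerative pool A). The median of the cumulus and granulosa cell genes without degenerative pool A was 0.13, and 2.298 over those with a mean of at least 5. With 3 pools a group, the intervals of TEAD4, ELF5 and KLF5 all included 0 and were wide.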
